A study of Mus musculus with 21 samples.

Results

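The nuclear genes for the subunits of the oxidative phosphorylation complexes were examined for peaks of ERα, the estrogen receptor alpha, which estradiol activates. Genes were chosen by symbol among protein-coding mouse genes: Nduf subunits of complex I, Sdha to Sdhd of complex II, Uqcr genes of complex III, Cox4 to Cox8 genes of complex IV and Atp5 genes of complex V. Assembly factors of complex I were left out. The rule gave 87 of the 21627 protein-coding genes on chromosomes 1 to 19 and X. By symbol alone, 40 of these were placed in complex I, 4 in complex II, 8 in III, 18 in IV and 17 in V. The placing was not checked against the complex that each protein joins, so single genes such as Ndufa4 and Ndufa4l2 may be misplaced. The symbol rule itself uses no measured value, but the genes and lists were chosen with earlier results of these data known.

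The data were ERα ChIP-seq peak lists from tissues of CD-1 mice aged 10 weeks. Mice given estradiol before sacrifice gave 4 libraries of the tissue labelled vWAT, 3 of scWAT, 1 of BAT and 2 of Liver, and mice given vehicle gave 2 libraries of vWAT. Each of these 5 groups had 1 deposited list of peaks, so there was no spread between libraries to set a difference against, and no test of treatment or tissue was made. The sources used here do not give the sex of the animals, the dose and time of estradiol, or the number of animals behind the libraries. Peaks numbered 20715 in vWAT with estradiol, 17971 in scWAT, 5193 in BAT, 21411 in Liver and 7400 in vWAT with vehicle, and the depth of reads behind them is unknown. Whole tissue was used, so binding in different cells of a tissue cannot be told apart. As a check of the tissue labels, 6 of 7 hepatocyte marker genes had a peak within 25 kb in the Liver list, against 2 or 3 in each other list. For 6 white adipocyte markers the count was 6 with estradiol in vWAT, 5 in scWAT, 1 in BAT, 4 in Liver and 2 with vehicle in vWAT. For 5 brown adipocyte markers it was 3, 2, 3, 2 and 2 in the same order. Among these, Lhx8 and Zic1 had a peak in BAT alone, whereas Ucp1 and Cidea had one in other lists and none in BAT. Over all genes the share with such a peak was 61.5%, 61.0%, 29.7%, 67.5% and 44.8% in that order of lists.

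Oxidative phosphorylation takes electrons from NADH through complex I and from succinate through complex II, passes them by way of complex III to oxygen at complex IV, and uses the proton gradient that results to make ATP at complex V. Nearly all subunits are encoded in the nucleus, and the rest on mitochondrial DNA. The nuclear genes are active in most cell types and their promoters are known for sites of NRF1, GABPA, YY1 and the estrogen-related receptors, whereas a few complex IV subunits have isoforms of restricted tissue expression. ERα reaches DNA at estrogen response elements, which are palindromes, or through other DNA-bound factors.

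Promoters of 6 subunit genes are shown first, because their peaks span the range of the data. The first 5 genes had among the strongest peaks of their complex at their start, and Cox8b, a muscle and brown fat isoform of complex IV, had none in any list. Each sequence is the RefSeq promoter on GRCm38.p6, the assembly of mm10, from 250 bases before the transcription start site to 50 bases after it, on the gene's own strand. Capitals mark the letters of motifs searched for below: a YY1 motif in Ndufs7, a ZNF143 motif in Uqcr10 and Cox7c, and SP1 letters (GGGCGG, on either strand) in Atp5b. Ndufb3 lies at chr1:58586147-58586446 (plus strand), Ndufs7 at chr10:80249199-80249498 (plus), Uqcr10 at chr11:4704295-4704594 (minus), Cox7c at chr13:86046746-86047045 (minus), Atp5b at chr10:128083057-128083356 (plus) and Cox8b at chr7:140900397-140900696 (minus).
Ndufb3: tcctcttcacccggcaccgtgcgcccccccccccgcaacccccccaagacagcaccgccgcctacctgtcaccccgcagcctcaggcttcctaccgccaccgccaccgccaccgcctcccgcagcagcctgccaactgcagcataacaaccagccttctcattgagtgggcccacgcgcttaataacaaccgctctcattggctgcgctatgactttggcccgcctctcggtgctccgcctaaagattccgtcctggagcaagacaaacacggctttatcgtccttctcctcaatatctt
Ndufs7: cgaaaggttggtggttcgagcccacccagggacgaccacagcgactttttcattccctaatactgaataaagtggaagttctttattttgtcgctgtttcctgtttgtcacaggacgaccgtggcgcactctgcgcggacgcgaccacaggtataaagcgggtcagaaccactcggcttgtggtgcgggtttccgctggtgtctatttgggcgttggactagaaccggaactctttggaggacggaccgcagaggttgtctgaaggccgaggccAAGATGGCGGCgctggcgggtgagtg
Uqcr10: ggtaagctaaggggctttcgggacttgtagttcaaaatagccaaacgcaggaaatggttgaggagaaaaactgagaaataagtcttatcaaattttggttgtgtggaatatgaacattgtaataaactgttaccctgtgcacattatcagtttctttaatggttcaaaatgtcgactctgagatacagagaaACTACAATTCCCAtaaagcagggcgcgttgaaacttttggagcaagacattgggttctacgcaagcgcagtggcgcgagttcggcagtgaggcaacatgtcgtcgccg
Cox7c: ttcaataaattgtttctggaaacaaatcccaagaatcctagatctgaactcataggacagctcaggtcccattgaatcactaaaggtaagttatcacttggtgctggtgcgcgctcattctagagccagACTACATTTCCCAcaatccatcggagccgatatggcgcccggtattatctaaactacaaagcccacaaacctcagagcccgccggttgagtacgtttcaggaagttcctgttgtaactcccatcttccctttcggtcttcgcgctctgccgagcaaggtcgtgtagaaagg
Atp5b: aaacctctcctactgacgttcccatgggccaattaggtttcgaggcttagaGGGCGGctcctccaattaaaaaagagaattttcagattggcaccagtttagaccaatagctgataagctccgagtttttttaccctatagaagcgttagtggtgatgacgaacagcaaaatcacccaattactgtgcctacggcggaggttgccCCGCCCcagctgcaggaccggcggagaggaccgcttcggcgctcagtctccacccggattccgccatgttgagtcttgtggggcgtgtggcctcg
Cox8b: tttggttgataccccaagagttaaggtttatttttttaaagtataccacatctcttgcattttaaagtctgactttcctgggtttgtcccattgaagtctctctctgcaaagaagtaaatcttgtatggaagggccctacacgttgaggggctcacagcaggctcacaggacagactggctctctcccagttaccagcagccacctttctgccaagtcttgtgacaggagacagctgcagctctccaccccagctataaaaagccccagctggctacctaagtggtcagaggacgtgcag

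A peak was assigned to a gene end when its summit lay within 1 kb of either end of the gene span. Peaks were found at an end of 58 of the 87 subunit genes in vWAT with estradiol, 60 in scWAT, 22 in BAT, 53 in Liver and 48 in vWAT with vehicle. In vWAT with estradiol that is 66.7% of the subunit genes (95% Wilson interval 56.2 to 75.7), beside 25.8% of all protein-coding genes. The share was 69.0% in scWAT (58.6 to 77.7), beside 26.7% of all genes, 25.3% in BAT (17.3 to 35.3), beside 10.0%, and 60.9% in Liver (50.4 to 70.5), beside 28.3%. With vehicle in vWAT it was 55.2% (44.7 to 65.2), beside 20.9%. All 5 lists thus held a gene-end peak at a larger share of subunit genes than of all genes. The intervals cover counting error over genes, which are not independent of each other, and not the spread between animals. Subunit genes are short, with a median span of 7.13 kb against 17.3 kb for all genes. Among genes whose span lay between 3.74 and 11.2 kb, the middle range of the subunit genes, 33 of 43 subunit genes had a gene-end peak in vWAT with estradiol, beside 27.9% of all genes of that span. The matching counts of 43 were 30 in scWAT (all genes 29.1%), 13 in BAT (10.4%), 33 in Liver (30.6%) and 28 in vWAT with vehicle (23.4%).

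The lists differ in length, and a longer list reaches more genes. With lists limited to the length of the BAT list, 5193 peaks taken by strength of p-value, 24 subunit genes had a gene-end peak in vWAT with estradiol, beside 9.84% of all genes, 25 in scWAT (8.49%), 22 in BAT (10.0%), 31 in Liver (15.7%) and 41 in vWAT with vehicle (17.2%). Held to equal length, the vehicle list thus reached the most subunit genes, and the lowest count came from BAT in both settings. Summits at ends of protein-coding genes made up 24.0% of all peaks in vWAT with estradiol, 29.7% in scWAT, 34.4% in BAT, 25.2% in Liver and 52.0% in vWAT with vehicle.

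**Figure D1:**
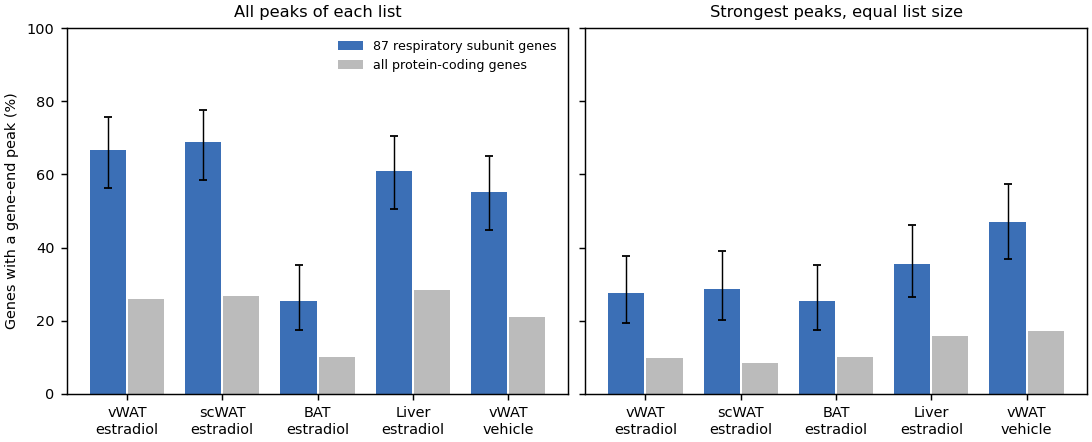
Percent of genes with an ERα summit within 1 kb of a gene end, for the 87 subunit genes (blue, with 95% Wilson intervals over genes) and all 21627 protein-coding genes (grey), in each list; the left panel uses all peaks and the right panel the 5193 strongest of each list. The blue bar is above the grey bar in every list of both panels, from 25.3% against 10.0% in BAT to 69.0% against 26.7% in scWAT with all peaks.

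Complex I oxidises NADH and is the largest complex. Gene-end peaks were found at 29 of its 40 genes in vWAT with estradiol, 30 in scWAT, 12 in BAT, 26 in Liver and 26 in vWAT with vehicle. Beside this and the complexes below stand 25.8%, 26.7%, 10.0%, 28.3% and 20.9% of all genes in the same order. Ndufb3, an accessory subunit of the membrane arm, had the strongest peak of all subunit genes in vWAT with estradiol, scWAT, BAT, Liver and vWAT with vehicle alike. Its enrichment, the authors' ratio for a peak, was 22.5 in vWAT with estradiol, 15.5 in scWAT, 13.5 in BAT, 22.8 in Liver and 25.9 in vWAT with vehicle. These ratios are set side by side only to show where a peak was present, since the background behind them is not stated and may differ between lists. The vWAT peak with estradiol covers chr1:58586215-58586826, with its summit 83 bp after the start shown above. The gene shares this end with Fam126b, whose end lies 64 bp away, so the peak cannot be given to either gene.

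Ndufs1, the large iron-sulfur subunit of the NADH arm, had an enrichment of 17.4 in vWAT with estradiol, 10.9 in scWAT, 10.2 in BAT, 17.9 in Liver and 19.47 in vWAT with vehicle. An end of Eef1b2 lies 9 bp from it. Ndufs7, which carries an iron-sulfur cluster close to the quinone site, had 17.4 in vWAT with estradiol, 11.6 in scWAT, 5.72 in BAT, 13.2 in Liver and 19.1 in vWAT with vehicle. Its summit in vWAT with estradiol lay 76 bp before the start. No end of another protein-coding gene lay within 1 kb (Gamt, 1357 bp), and other kinds of gene were not searched. Ndufa12, an accessory subunit of the NADH arm, had 13.9 in vWAT with estradiol, 9.53 in scWAT, 7.57 in BAT, 12.9 in Liver and 17.3 in vWAT with vehicle. All 3 had a peak in each list, and in both vWAT lists they stood between percentiles 96.7 and 99.3 by enrichment. Ndufv1, which binds NADH and FMN, also had a peak in each list, with 9.91 in vWAT with estradiol, 5.597 in scWAT, 4.66 in BAT, 10.96 in Liver and 6.95 in vWAT with vehicle. Ndufs3, another core subunit, had 12.3 in vWAT with estradiol, 7.45 in scWAT, 5.86 in Liver and 12.3 in vWAT with vehicle, and no peak in BAT. Strong peaks thus stood at core and accessory subunits alike. Ndufv2, a core subunit of the NADH arm, had a weak peak in scWAT alone, at 2.92.

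Complex II, succinate dehydrogenase, also belongs to the tricarboxylic acid cycle. Gene-end peaks were found at 3 of its 4 genes in vWAT with estradiol, 2 in scWAT, none in BAT, 3 in Liver and 2 in vWAT with vehicle. Sdha, the flavoprotein, had an enrichment of 3.72 in vWAT with estradiol, 2.44 in scWAT and 5.44 in Liver, and no peak in BAT or in vWAT with vehicle. Sdhb, the iron-sulfur protein, had a peak in vWAT with vehicle alone, at 4.07. The membrane anchor Sdhc had 3.47 in vWAT with estradiol, 3.15 in scWAT, 5.07 in Liver and 3.96 in vWAT with vehicle, and the other anchor, Sdhd, had 4.49 in vWAT with estradiol and 4.31 in Liver. All complex II peaks were weak in vWAT with estradiol: their median percentile by enrichment was 13.3, and none was among the 5193 strongest peaks of either vWAT list.

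Complex III passes electrons from quinol to cytochrome c. Gene-end peaks were found at 6 of its 8 genes in vWAT with estradiol, all 8 in scWAT, 2 in BAT, 5 in Liver and 5 in vWAT with vehicle. Uqcr10, a small accessory subunit, had an enrichment of 18.9 in vWAT with estradiol, 14.3 in scWAT, 11.9 in BAT, 16.8 in Liver and 20.4 in vWAT with vehicle. Its peak, chr11:4704018-4704855 in vWAT with estradiol, had its summit 172 bp before the start, and Zmat5 has an end 312 bp away. Uqcrfs1, the Rieske iron-sulfur protein, had 8.11 in vWAT with estradiol, 4.16 in scWAT, 4.46 in BAT, 6.22 in Liver and 4.42 in vWAT with vehicle. Uqcrb, an accessory subunit, had 4.64 in vWAT with estradiol, 3.06 in scWAT, 5.25 in Liver and 4.49 in vWAT with vehicle. Only Uqcr10 and Uqcrfs1 had a peak in every list. The core subunit Uqcrc1 had peaks in scWAT (3.39) and Liver (3.77) alone, and its partner Uqcrc2 in vWAT with estradiol (3.89) and scWAT (3.97) alone.

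Complex IV, cytochrome c oxidase, had gene-end peaks at 5 of 18 genes in vWAT with estradiol, 7 in scWAT, 3 in BAT, 5 in Liver and 4 in vWAT with vehicle. As a share that is 27.8% in vWAT with estradiol (95% Wilson interval 12.5 to 50.9), close to the 25.8% of all genes. With vehicle it was 22.2% (9.0 to 45.2), close to 20.9%. At start sites of RefSeq promoters, 7 complex IV genes had a peak in vWAT with estradiol, beside 27.1% of all genes with such a start. Cox4i1, Cox4i2, Cox6a2, Cox6c and Cox8c have no such start, and of the rest the 7 are a larger share than that of all genes. The closeness to all genes thus held at gene ends and not at start sites. Cox7c, a small structural subunit, had an enrichment of 11.98 in vWAT with estradiol, 6.74 in scWAT, 4.22 in BAT, 11.7 in Liver and 11.3 in vWAT with vehicle. The nearest end of another protein-coding gene, that of Rasa1, lay 755312 bp away, so no protein-coding neighbour shares this peak. Cox7a2l, which helps to join complexes III and IV, had 9.23 in vWAT with estradiol, 5.77 in scWAT, 5.89 in BAT, 7.71 in Liver and 6.003 in vWAT with vehicle. Cox5b, a nuclear subunit on the matrix side, had 4.52 in vWAT with estradiol, 3.68 in scWAT, 5.20 in BAT, 4.23 in Liver and 4.43 in vWAT with vehicle. Cox6b1, which faces the intermembrane space, had 5.80 in vWAT with estradiol, 3.58 in scWAT, 4.08 in Liver and 4.40 in vWAT with vehicle.

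Several complex IV genes are isoforms of restricted tissue expression. The list of 8 such isoforms (Cox4i2, Cox6a2, Cox6b2, Cox7a1, Cox7b2, Cox8b, Cox8c and Ndufa4l2, placed in complex I by its symbol) had no gene-end peak in any list. Within 25 kb of the span, 5 of the 8 had a peak in vWAT with estradiol (61.5% of all genes), 5 in scWAT (61.0%), 3 in BAT (29.7%), 4 in Liver (67.5%) and 4 in vWAT with vehicle (44.8%). Of their 7 broadly expressed partners, 2 had a gene-end peak in vWAT with estradiol (Cox6b1 and Cox7b; 25.8% of all genes), 4 in scWAT (26.7%), none in BAT (10.0%), 3 in Liver (28.3%) and 2 in vWAT with vehicle (20.9%). Of the 11 complex IV genes outside the list of restricted isoforms, 5 had a gene-end peak in vWAT with estradiol.

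For some genes the span runs well past the start site in the promoter table, so that a peak at the start is missed by the rule. Cox5a, Cox7a2 and Atp5d had no gene-end peak, but each has a tabulated start over 3 kb inside its span. At that start, Cox7a2 had a peak in every list, with an enrichment of 4.84 in vWAT with estradiol, 4.21 in scWAT, 5.43 in BAT, 7.24 in Liver and 6.35 in vWAT with vehicle. Atp5d, the delta subunit of the ATP synthase stalk, had 7.27 in vWAT with estradiol, 5.31 in scWAT, 6.09 in BAT, 7.50 in Liver and 9.85 in vWAT with vehicle. Cox5a, a matrix-side subunit, had 5.39 in vWAT with estradiol, 3.01 in scWAT and 5.34 in Liver, and no peak there in BAT or in vWAT with vehicle. These 3 genes were singled out after their values were seen.

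Complex V, the ATP synthase, had gene-end peaks at 15 of 17 genes in vWAT with estradiol, 13 in scWAT, 5 in BAT, 14 in Liver and 11 in vWAT with vehicle. Its share in vWAT with estradiol was 88.2% (95% Wilson interval 65.7 to 96.7), and the other 2 genes there were Atp5d, described above, and Atp5g2, with peaks in BAT (4.33) and Liver (4.43) alone. Atp5b, the catalytic beta subunit, had an enrichment of 17.5 in vWAT with estradiol, 9.04 in scWAT, 9.68 in Liver and 20.1 in vWAT with vehicle, and no peak in BAT. Atp5o, which ties the head to the outer stalk, had 13.7 in vWAT with estradiol, 8.10 in scWAT, 6.23 in BAT, 11.8 in Liver and 12.8 in vWAT with vehicle. Atp5g3, one of the genes for the membrane ring subunit, had 10.6 in vWAT with estradiol, 14.1 in scWAT and 10.2 in vWAT with vehicle. Its peaks lay 145 bp before its start with estradiol and 162 bp before it with vehicle, but close to the edge of the gene-end window. In Liver a peak of 7.20 stood at that start and outside the window. Atp5j, a stalk subunit, had a peak in each list at an end it shares with Gabpa, the gene for an ETS factor known to act on respiratory promoters, whose end lies 966 bp away. In vWAT with estradiol the median enrichment was 8.46 over complex V, 5.80 over complex IV, 4.46 over complex III, 3.72 over complex II and 5.76 over complex I, and the median percentiles within the list were 84.7, 66.4, 38.8, 13.3 and 66.0. This order did not hold in every list. Among complexes with a peak, complex V had the highest median percentile in scWAT (69.9) and in vWAT with vehicle (85.1). It had the lowest in BAT (53.8) and Liver (78.0), and complex II stood at 79.3 in Liver.

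**Figure D2:**
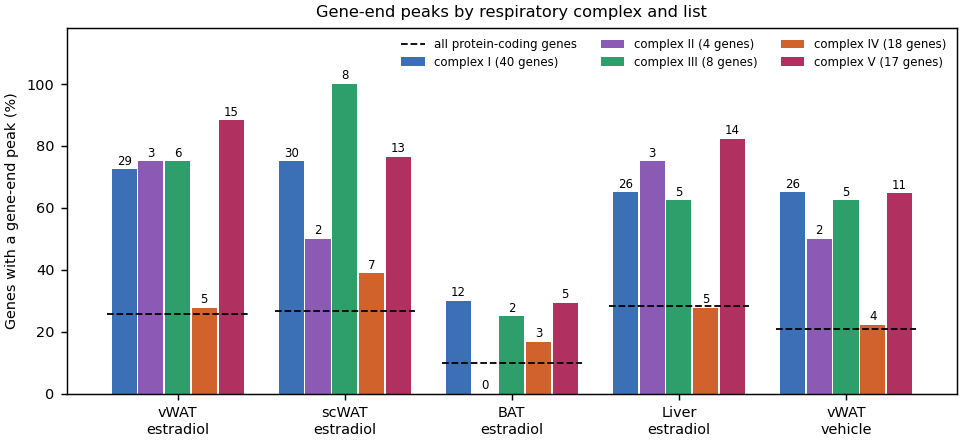
Percent of the genes of each complex with an ERα gene-end peak in each list, with the number of genes above each bar; dashed lines give the share of all protein-coding genes in that list. In vWAT with estradiol the bar of complex IV (5 of 18 genes) is close to the line at 25.8%, and those of complexes I, II, III and V lie above it.

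**Figure D3:**
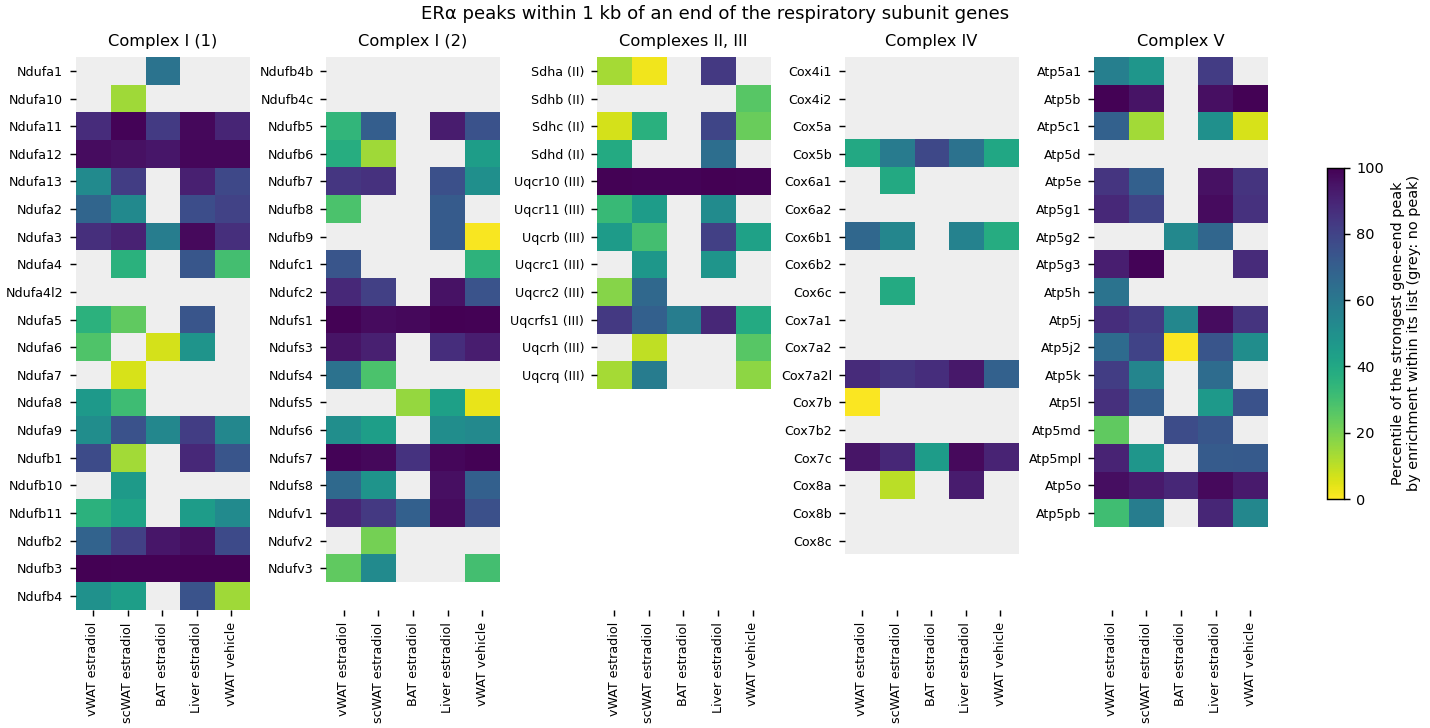
Each row is a subunit gene (not all are shown) and each column a list; colour gives the percentile by enrichment of its strongest gene-end peak among all peaks of that list, and grey marks no peak. Ndufb3, Ndufs1, Ndufs7 and Uqcr10 are dark in all columns, and the rows of the restricted complex IV isoforms are grey throughout.

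Estradiol and vehicle were compared in vWAT. Gene-end peaks were present with both treatments at 43 subunit genes (16.9% of all genes), with estradiol alone at 15 (8.89%), with vehicle alone at 5 (4.0%) and with neither at 24 (70.2%). Genes with a peak under both treatments had a median enrichment of 8.11 in the estradiol list (range 3.47 to 22.5) and 6.78 in the vehicle list (3.44 to 25.9). The 15 genes with an estradiol peak alone had weaker peaks, with a median of 4.28 (2.93 to 7.79). Their 5 strongest were Atp5k at 7.79, Ndufs4 at 5.49, Atp5h at 5.46, Atp5a1 at 5.15 and Ndufa8 at 4.71. Atp5k, Atp5h and Atp5a1 encode parts of the ATP synthase, among them the alpha subunit (Atp5a1), and Ndufs4 and Ndufa8 are accessory subunits of complex I. Of the 15, 14 passed a −log10 q-value of 2, and the exception was Cox7b. The vehicle-only peaks were at Ndufa4 (4.18), Sdhb (4.07), Uqcrh (4.05), Ndufs5 (3.28) and Ndufb9 (3.16), of which those at Ndufa4 and Uqcrh passed a −log10 q-value of 2.

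The estradiol list held 20715 peaks from 4 libraries against 7400 from 2 with vehicle, and library number and list length cannot be told apart from the treatment. With both lists held to 5193 peaks, 23 subunit genes had a peak under both treatments (all genes 9.05%), 1, Atp5k, with estradiol alone (0.791%), and 18 with vehicle alone (8.15%). The direction of the difference in counts thus turned with list length. Of the 59 estradiol peaks at subunit gene ends, 42 overlapped a vehicle peak, or 71.2%, beside 59.0% of all gene-end peaks of the list. At the 43 genes with a peak under both treatments, the strongest peaks of the lists overlapped in 42, the exception being Ndufb4.

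Across lists, 17 subunit genes had a gene-end peak in all 5 (all genes 6.94%), 21 in exactly 4 (7.18%), 13 in 3 (6.5%), 11 in 2 (7.82%), 11 in 1 (13.1%) and 14 in none (58.4%), so that 73 had a peak in at least 1 (41.6%). Those in all 5 were Ndufa3, Ndufa9, Ndufa11, Ndufa12, Ndufb2, Ndufb3, Ndufs1, Ndufs7 and Ndufv1 of complex I, Uqcr10 and Uqcrfs1 of complex III, Cox5b, Cox7a2l and Cox7c of complex IV, and Atp5j, Atp5j2 and Atp5o of complex V. In all lists other than that of BAT 38 had a peak (13.2%), of which 21, Atp5b and Ndufs3 among them, lacked one in BAT. Peaks present in 1 list alone were of low to middle rank among the genes named here, from percentile 0.51 by enrichment (Cox7b in vWAT with estradiol) to 62.0 (Ndufa1 in BAT). In scWAT they stood at Ndufb10 (3.35), Cox6a1 (3.22), Cox6c (3.21), Ndufv2 (2.92), Ndufa10 (2.76) and Ndufa7 (2.58). In vWAT with estradiol they included those at Atp5h (5.46, percentile 61.8) and Cox7b (2.93). They stood in BAT at Ndufa1 (4.51), in vWAT with vehicle at Sdhb (4.07), and in Liver at no gene. Genes with no gene-end peak in any list included Cox4i1, the broadly expressed form of a large nuclear subunit of complex IV, as well as Ndufb4b and Ndufb4c.

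At the 70 subunit genes with a start site in the promoter table, summits stood at the start and not at the far end. Among genes with a span over 2 kb, all 46 with a gene-end peak in vWAT with estradiol had it at the start, as did all 48 in scWAT, 19 in BAT, 43 in Liver and 39 in vWAT with vehicle. For all genes of that kind the share was 91.1%, 91.6%, 91.8%, 91.3% and 94.0% in the same order of lists. Counted directly, a summit lay within 1 kb of a start at 52 of 70 subunit genes in vWAT with estradiol (27.1% of 17273 genes), 54 in scWAT (28.0%), 23 in BAT (10.6%), 50 in Liver (29.4%) and 43 in vWAT with vehicle (22.8%). The median distance of the summit from the start, either way, was 131 bp in vWAT with estradiol, 139 bp in scWAT, 78 bp in BAT, 101.5 bp in Liver and 132 bp in vWAT with vehicle. Within 250 bp of the start lay 41 of 49 such summits in vWAT with estradiol, 38 of 51 in scWAT and 20 of 21 in BAT. The counts were 41 of 46 in Liver and 30 of 41 in vWAT with vehicle. They were not made for all genes, and differences between lists, which differ in length and library number, were not tested.

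**Figure D4:**
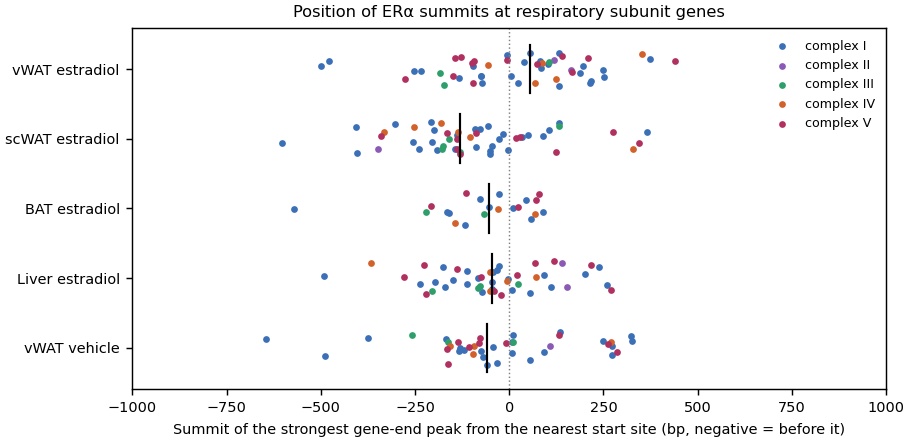
Each point is a subunit gene with a gene-end peak, placed by the distance in bp from its nearest start site to the summit of its strongest gene-end peak (negative is before the start); colours give the complex and black bars the median of each list. Points gather around 0 in all lists, with the medians between -130 bp in scWAT and 54 bp in vWAT with estradiol.

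Many subunit genes have an end close to that of another gene. Another protein-coding gene had an end within 1 kb at 49 of the 87 (56.3%), against 25.1% of all protein-coding genes, and 27 of the 59 gene-end peaks in vWAT with estradiol also lay at an end of the other gene. Among subunit genes with such a neighbour, 34 of 49 had a gene-end peak in vWAT with estradiol (44.3% of all genes of that kind), 36 in scWAT (45.3%), 9 in BAT (19.4%), 29 in Liver (49.7%) and 28 in vWAT with vehicle (39.2%). Among the 38 without one, 24 had a peak in vWAT with estradiol (19.6%), 24 in scWAT (20.4%), 13 in BAT (6.86%), 24 in Liver (21.2%) and 20 in vWAT with vehicle (14.8%). In BAT the count at genes with a neighbour, 9 of 49 or 18.4%, was close to that of all such genes. In the other 4 lists the subunit genes of both kinds had the larger share.

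The promoters were searched on both strands for motifs of factors known at such genes. The estrogen response element, GGTCA and TGACC with 3 bases between, was found in none of the 70 subunit gene promoters and in 0.0637% of all 17273. The estrogen-related receptor letters TCAAGGTCA were found in 2, Atp5g3 and Sdhd (0.382% of all; the last 5 letters are also an arm of the estrogen response element), and the palindromic NRF1 motif, GCGCA followed by TGCGC, in 5 (1.49%). GABPA letters CCGGAAGT were found in 5 (5.76%), the YY1 motif, as in capitals in Ndufs7, in 4 (1.07%) and SP1 letters GGGCGG in 28 (49.8%). The YY1 motif stood in Ndufa9, Ndufs4, Ndufs6 and Ndufs7, all of complex I. All 4 had a gene-end peak in vWAT with estradiol, as did 49 of the 70 subunit genes with a promoter, 2 of the 5 with the NRF1 motif and 3 of the 5 with the GABPA letters. The median GC content was 57.8% against 56.7%. A match describes letters in a window of 300 bases and not a bound site, and its absence says only that these letters are not there.

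The letters ACTACA and TCCCA with 2 bases between, a motif of the zinc finger factor ZNF143, were added to the search after these promoters had been read. They were found in 6 of 70 subunit gene promoters, or 8.57%, beside 2.41% of all promoters, and at each of the 6 they lay before the start. The sites are given with 8 bases on either side, on the strand of the motif, with the motif in capitals. On GRCm38.p6 the motifs lie at chr10:80142193-80142205 (plus strand) for Atp5d, chr16:91931703-91931715 (minus) for Atp5o, chrX:106015618-106015630 (plus) for Cox7b, chr13:86046904-86046916 (minus) for Cox7c, chr19:4012848-4012860 (minus) for Ndufv1 and chr11:4704390-4704402 (minus) for Uqcr10.
Atp5d: cgaagaaaACTACAATTCCCAgaatgacc
Atp5o: aggtacggACTACAACTCCCAgcatgcaa
Cox7b: agcttgaaACTACATTTCCCAaagacctt
Cox7c: agagccagACTACATTTCCCAcaatccat
Ndufv1: caagctggACTACATCTCCCAgaaggcct
Uqcr10: acagagaaACTACAATTCCCAtaaagcag

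Of these genes Atp5o, Cox7c, Ndufv1 and Uqcr10 had a gene-end peak in all 5 lists and Atp5d a peak at its inner start in all 5, whereas Cox7b had a weak one in vWAT with estradiol alone. The site ended 46 bp before the start in Uqcr10, between 70 and 73 bp before it in Atp5d, Atp5o and Cox7b, 93 bp before it in Ndufv1 and 109 bp before it in Cox7c. In vWAT with estradiol the letters stood at 4 of 22 subunit genes with a gene-end peak among the 5193 strongest and at 1 of 27 with a weaker one. Over all genes the shares were 17.0% of 1799 genes with a strong peak, 1.80% of 2782 with a weaker one and 0.481% of 12692 with none. Since the motif was picked from promoters with strong peaks, these shares are a description.

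Counting peaks anywhere inside the span or within 25 kb of it, gene ends included, a peak stood at 76 of 87 subunit genes in vWAT with estradiol (61.5% of all genes), 80 in scWAT (61.0%), 37 in BAT (29.7%), 75 in Liver (67.5%) and 67 in vWAT with vehicle (44.8%). Among the 43 of middle span the counts were 41 in vWAT with estradiol (61.0% of all genes of that span), 43 in scWAT (61.6%), 21 in BAT (29.7%), 39 in Liver (64.7%) and 38 in vWAT with vehicle (47.9%). Among genes with no gene-end peak, a peak elsewhere in this range was found at 18 of 29 subunit genes in vWAT with estradiol, or 62.1% (95% Wilson interval 44.0 to 77.3), beside 48.1% of all genes with no gene-end peak. The count was 20 of 27 in scWAT, or 74.1% (55.3 to 86.8), beside 46.8%, and 15 of 65 in BAT, or 23.1% (14.5 to 34.6), beside 21.9%. It was 22 of 34 in Liver, or 64.7% (47.9 to 78.5), beside 54.7%, and 19 of 39 in vWAT with vehicle, or 48.7% (33.9 to 63.8), beside 30.2%. The share of all genes lay within the interval in vWAT with estradiol, BAT and Liver, and below it in scWAT and in vWAT with vehicle. As above, the intervals cover counting error over genes that are not independent. Span was not matched in this comparison, and the position of a share is not a test. Genes with a peak within 25 kb in all 5 lists numbered 34 (21.1%), and those with none in any list were Cox6a2, Cox7b2, Cox8c and Ndufb4b (20% of all genes).

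In vWAT with estradiol 95 peaks lay within 25 kb of a subunit gene but not at its ends, and 42 of them stood at an end of another gene. The strongest was 13.6 kb from Sdhd, at chr9:50617052-50617734 inside the span of Nkapd1 and near its end, with an enrichment of 19.7. Next came peaks 9.66 kb from Ndufa3, at Tfpt (17.1), and 24.97 kb from it, at Cnot3 (15.01). A peak 11.9 kb from Cox6b2 stood at Kmt5c (14.3), and one 11.99 kb from Atp5h stood at Mrpl58, a mitochondrial ribosomal protein gene (13.8). All 5 stood at ends of other genes, and each overlapped a peak in every other list, vehicle included.

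Of the 95 distal peaks, 62 overlapped no vehicle peak, or 65.3%. The vehicle list is much the shorter, and 76.8% of the estradiol peaks that lie this way beside any protein-coding gene overlapped no vehicle peak either, so the share beside subunit genes was the lower one. The strongest of these that lay at no end of another protein-coding gene was at chr13:66896703-66897310, 3.70 kb from Uqcrb, with an enrichment of 10.7. The next was at chr1:58610084-58610990, 14.6 kb past the far end of Ndufb3 (10.3), and another, at chr4:140955951-140956565, was 5.07 kb from Sdhb and 3.61 kb from Padi2 (9.64). Each of the 3 overlapped a scWAT peak and none in BAT, Liver or vWAT with vehicle. The loci of Uqcrb, Ndufb3 and Sdhb thus held both kinds of peak: a gene-end peak in the vehicle list, and a distal one with estradiol that overlapped none with vehicle.

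Genes that build or feed the complexes were counted the same way. The share of all genes was 25.8% in vWAT with estradiol, 26.7% in scWAT, 10.0% in BAT, 28.3% in Liver and 20.9% with vehicle. Of 14 complex I assembly factors, 10 had a gene-end peak in vWAT with estradiol, 13 in scWAT, 2 in BAT, 10 in Liver and 9 in vWAT with vehicle. Ndufaf8 stood highest at 18.7 in vWAT with estradiol, followed by Ndufaf1 at 15.5. Of 31 assembly factors of complexes II to V, 21 had one in vWAT with estradiol, 22 in scWAT, 9 in BAT, 28 in Liver and 21 in vWAT with vehicle, and Sdhaf3, which helps to mature the Sdhb protein, stood highest in vWAT with estradiol at 14.5. Of 13 tricarboxylic acid cycle genes, the counts were 7 in vWAT with estradiol, 9 in scWAT, 1 in BAT, 7 in Liver and 5 in vWAT with vehicle. The 4 subunits and carriers outside the symbol rule (Cyc1, Cycs, Ndufab1 and Atpif1) gave 3, 2, 1, 3 and 1 in the same order. In BAT the share was 7.69% of the cycle genes and 14.3% of the complex I assembly factors, near the 10.0% of all genes.

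Of 9 regulators of respiratory genes, 3 had a gene-end peak in vWAT with estradiol (25.8% of all genes) and 4 in scWAT (26.7%). The count was 4 in BAT (10.0%), 3 in Liver (28.3%) and 4 in vWAT with vehicle (20.9%). Pprc1, a coactivator related to PGC-1α, had 17.5 in vWAT with estradiol, 10.1 in scWAT, 7.84 in BAT, 13.2 in Liver and 15.3 in vWAT with vehicle. Esrra, the estrogen-related receptor alpha, had a gene-end peak of 3.11 in scWAT, 5.10 in BAT, 4.75 in Liver and 8.73 in vWAT with vehicle, and none in vWAT with estradiol. Ppargc1a and Ppargc1b, coactivators of mitochondrial genes, had no gene-end peak in any list. Within 25 kb of the span, Ppargc1a had a peak in vWAT with estradiol, BAT and Liver, and Ppargc1b in every estradiol list. Such a peak stood at 9 of the 9 regulators in vWAT with estradiol (61.5% of all genes) and 8 in scWAT (61.0%). It stood at 8 in BAT (29.7%), 9 in Liver (67.5%) and 5 in vWAT with vehicle (44.8%).

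Ribosomal protein genes, which are active in most cell types as well, were counted beside the subunit genes. Of 78 mitochondrial ribosomal protein genes, 60 had a gene-end peak in vWAT with estradiol (76.9%), 62 in scWAT (79.5%), 27 in BAT (34.6%), 58 in Liver (74.4%) and 52 in vWAT with vehicle (66.7%). Of 101 cytosolic ribosomal protein genes, 63 had one in vWAT with estradiol (62.4%), 72 in scWAT (71.3%), 28 in BAT (27.7%), 71 in Liver (70.3%) and 54 in vWAT with vehicle (53.5%). The shares of all 87 subunit genes, given above, lay between those of these gene lists in vWAT with estradiol and with vehicle. They lay below both in scWAT, BAT and Liver. Without the 8 restricted isoforms, the share of the other 79 was 73.4% in vWAT with estradiol, 75.9% in scWAT and 27.8% in BAT. It was 67.1% in Liver and 60.8% in vWAT with vehicle. It then lay below both gene lists in Liver alone, and in BAT it was close to that of the cytosolic list. The differences between gene lists were not tested.

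**Figure D5:**
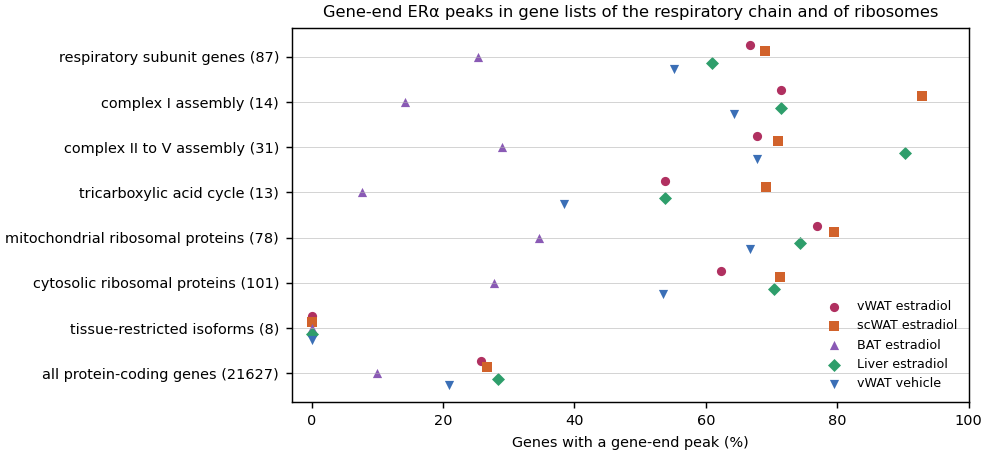
Percent of the genes of each list with an ERα gene-end peak; each marker is 1 of the 5 peak lists and list sizes are in brackets. The subunit genes, restricted isoforms included, lie between the mitochondrial and the cytosolic ribosomal protein genes in vWAT with estradiol (66.7% against 76.9% and 62.4%). They lie between them in vWAT with vehicle too, and below both in scWAT, BAT and Liver. The restricted isoforms are at 0 in all lists, and all protein-coding genes are at 25.8% in vWAT with estradiol.

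Within each list, peaks at subunit gene ends were of middle to high rank. Their median enrichment was 5.76 over 59 peaks in vWAT with estradiol, against 5.18 over all gene-end peaks. It was 3.58 against 3.43 in scWAT, 4.88 against 4.58 in BAT, 5.31 against 5.01 in Liver and 6.01 against 5.65 in vWAT with vehicle. Of these peaks 94.9% passed a −log10 q-value of 2 in vWAT with estradiol, 93.5% in scWAT, 54.5% in BAT, 81.8% in Liver and 84.0% in vWAT with vehicle. Such peaks stood at 56 subunit genes in vWAT with estradiol (23.9% of all genes), 57 in scWAT (24.3%), 12 in BAT (5.23%), 44 in Liver (22.1%) and 41 in vWAT with vehicle (17.3%). BAT, with 1 library, had the lowest share.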

How the data were processed

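ERα ChIP-seq peak lists of 5 groups, from 12 of the 21 samples, were used, and groups were taken from the labels. The RNA-seq and H3K27ac libraries of vWAT were not used here. Per the labels' protocols, frozen tissue gave nuclei that were sonicated, and chromatin was precipitated with an antibody to ERα. Per the submitters' processing notes, BWA 0.7.12 and HOMER were used, with build mm10. The sources used here do not give the peak caller, its control and cut-off, or how libraries were joined.

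The authors deposited for each peak an enrichment ratio (its background is not stated), −log10 p- and q-values, a summit position and a score. The score was the −log10 p-value times 10 without its decimals. All libraries of a group point to 1 list, so no value per library was used and no p-value was computed. Enrichment and its percentile were used within a list only. Since list length depends on depth and library number, lists were also held to equal length by p-value.

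Gene spans came from RefSeq on GRCm38.p6, the assembly of mm10, and start sites and promoters from its promoter table, which held 70 of the 87 genes and 17273 genes in all. Coordinates count from 1. Overlap means at least 1 shared base. Wilson intervals have a level of 95%. Named genes follow a rule: the 3 strongest of each complex in vWAT with estradiol, the 5 strongest present in all lists, with estradiol alone or with vehicle alone, those of 1 tissue list alone, the isoforms, the 5 strongest distal peaks and genes with no peak. Genes outside it, among them Cox5b, Ndufv1, Ndufv2, Uqcrc1, Uqcrc2, Atp5j and the distal estradiol-only peaks, were picked with their values in view. A gene that the rule gives is not reported by name here. The genes and lists were chosen with earlier results of these data known. Counting was checked on simulated peaks. The scripts ran on Python 3.11.15, pandas 2.3.3, numpy 2.4.6, matplotlib 3.10.9 and scipy 1.17.1.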

Additional observations from a re-analysis of the deposited data

How the results depend on the processing

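With lists of equal length, counts of subunit genes with a gene-end peak were 24 in vWAT with estradiol, 25 in scWAT and 31 in Liver, and counts within 25 kb were 40 in vWAT with estradiol and 41 in scWAT. Requiring a −log10 q-value of 2 left 12 genes with a gene-end peak and 21 with a peak within 25 kb in BAT, and a distance of 100 kb gave 65 there. Without genes that share an end, counts were 24 in vWAT with estradiol, 24 in scWAT, 13 in BAT, 24 in Liver and 20 in vWAT with vehicle, of 38 genes. Estradiol peaks at subunit genes found with vehicle numbered 27 of 59 with summits within 100 bp, which was not counted for all gene-end peaks, and 23 of 24 at equal length. Counted by gene at equal length, 23 of 24 subunit genes with an estradiol gene-end peak also had one with vehicle. Over all genes it was 1957 of 2128, so the subunit genes were close to all genes here. For the complexes in vWAT with estradiol, equal length gave 11 genes of complex I, 0 of II, 2 of III, 2 of IV and 9 of V. Without genes that share an end the counts were 10 of 14, 0 of 1, 2 of 3, 5 of 12 and 7 of 8 in the same order. Start sites only gave 3 genes of complex III, since Uqcrb, Uqcrc2 and Uqcrq, each with a gene-end peak, have no start in the promoter table. A window of 5 kb gave 8 of complex IV. Besides these values, 48 for the whole list and 34 for the complexes and for all genes stayed within 1.5 times the value given. A narrower window and overlap of the peak interval moved none of the counts of gene-end peaks further than that. No paired analysis was possible because each group has 1 peak list, which also means that no library could be left out. The read depth, unknown here, limits every absence of a peak.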

Other observations

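The remaining subunits of the complexes are encoded by 13 genes on the mitochondrial chromosome, which lie outside the list. Each peak list held 2 broad peaks on it, of 5.0 to 6.4 kb, against median widths of 434 bp in vWAT with estradiol, 407 bp in scWAT, 299 bp in BAT, 298 bp in Liver and 393.5 bp in vWAT with vehicle. Their enrichment was low, at 1.67 and 2.02 in vWAT with estradiol, 1.61 and 1.95 in scWAT, 1.96 and 2.07 in BAT, 1.83 and 1.80 in Liver, and 1.75 and 2.32 in vWAT with vehicle. Nearly all nuclear peaks of the same list had a higher enrichment.

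The ZNF143 motif was counted in every list held to 5193 peaks. Among all genes with a gene-end peak of that kind they stood in 17.0% of promoters in vWAT with estradiol, 18.1% in scWAT, 15.9% in BAT, 12% in Liver and 11% in vWAT with vehicle. Among genes with no gene-end peak they stood in 0.481%, 0.576%, 0.828%, 0.465% and 0.533% in the same order. The pattern was seen in these data first and was present with vehicle as well as with estradiol.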
